A study of Saccharomyces cerevisiae with 6 samples.

Results

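The *ADE* genes encode the enzymes of de novo purine synthesis, and 10 of them (*ADE1*, *ADE2*, *ADE3*, *ADE4*, *ADE6*, *ADE8*, *ADE12*, *ADE13*, *ADE16* and *ADE17*) were examined by name among the 6256 genes of the array. All 10 were found through the systematic names on the array, each with 1 probe in 7 spots, and all 10 were well above background on all 6 arrays. RNA of the strains YΔG/XK/XI (the control) and YΔGP/XK/XI (the *PHO13* disruptant) was taken after 9 h of fermentation of 50 g/L xylose. The fermentation was oxygen-limited for both strains, with 3 replicates per strain and 1 single-colour Agilent array per replicate. Both strains derive from YPH499, a *MAT*a laboratory strain with *ade2*, *his3*, *leu2*, *lys2*, *trp1* and *ura3* mutations. In both, *GRE3* (aldose reductase) was deleted, the xylulokinase gene *XKS1* was overexpressed from the *TDH3* promoter, and multiple copies of the *Orpinomyces* xylose isomerase gene *xylA* were integrated at δ sequences. The disruptant additionally carries *KanMX* in place of *PHO13*, a phosphatase gene. The sources do not say whether more than 1 clone of each strain was used, or whether the replicates were separate precultures, so the spread between replicates may be partly technical.

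De novo synthesis builds the purine ring on phosphoribosyl pyrophosphate (PRPP) and ends at IMP, from which AMP and GMP are made. Formyl tetrahydrofolate donates carbon atoms to the ring at a pair of steps, so the pathway is tied to one-carbon metabolism. In budding yeast the transcription factors Bas1 and Pho2 activate the *ADE* genes when adenine is scarce, and supplied adenine lowers their expression. Ade2 acts within the pathway, so an *ade2* strain cannot complete it and lives on adenine from the medium, here yeast extract and peptone.

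Signals are given as log2 of the background-subtracted intensity minus the 75th percentile of the same array, and differences are the disruptant minus the control. *PHO13* had signals of -0.80, -0.89 and -1.07 in replicates 1 to 3 of the control and of -9.34, -8.59 and -8.30 in those of the disruptant, where its probe was well above background on 0 of 3 arrays. The *GRE3* and *HIS3* probes were well above background on 0 of the 6 arrays. The *MAT*a genes *MFA1*, *MFA2*, *STE2* and *BAR1* were well above background on all 6. Of the genes typical of the opposite mating type, *MF(ALPHA)1* and *MF(ALPHA)2* were well above background on 1 array of the disruptant each, and *STE3* and *SAG1* on all 6 arrays. The 75th percentile was 3782 to 7632 intensity units, no spot was saturated, and replicate 3 of both strains was on a second slide and had the lowest percentile of its strain. Across genes, 16.5% were called higher and 13.1% lower in the disruptant at an adjusted p under 0.05 (limma, Benjamini-Hochberg over all 6256 genes).

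Of the 10 *ADE* genes, *ADE3* and *ADE8* fell in the disruptant, 0 rose, and 8 did not pass the test. The share called lower, 2 of 10, stood beside 13.1% of all genes, so with 10 genes the count is close to the background. Changes were small throughout, with log2 fold changes from -0.32 to 0.10 and a median of -0.16, where the median of all genes was 0.01. Of the 10 genes 9 had a mean below that of the control, as did 48.6% of all genes. At an unadjusted p under 0.05 in either direction the count was 4, adding *ADE1* and *ADE12*, beside 42.1% of all genes. RNA came from whole cultures, so a lower signal in every cell and a smaller share of expressing cells cannot be told apart.

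**Figure D1:**
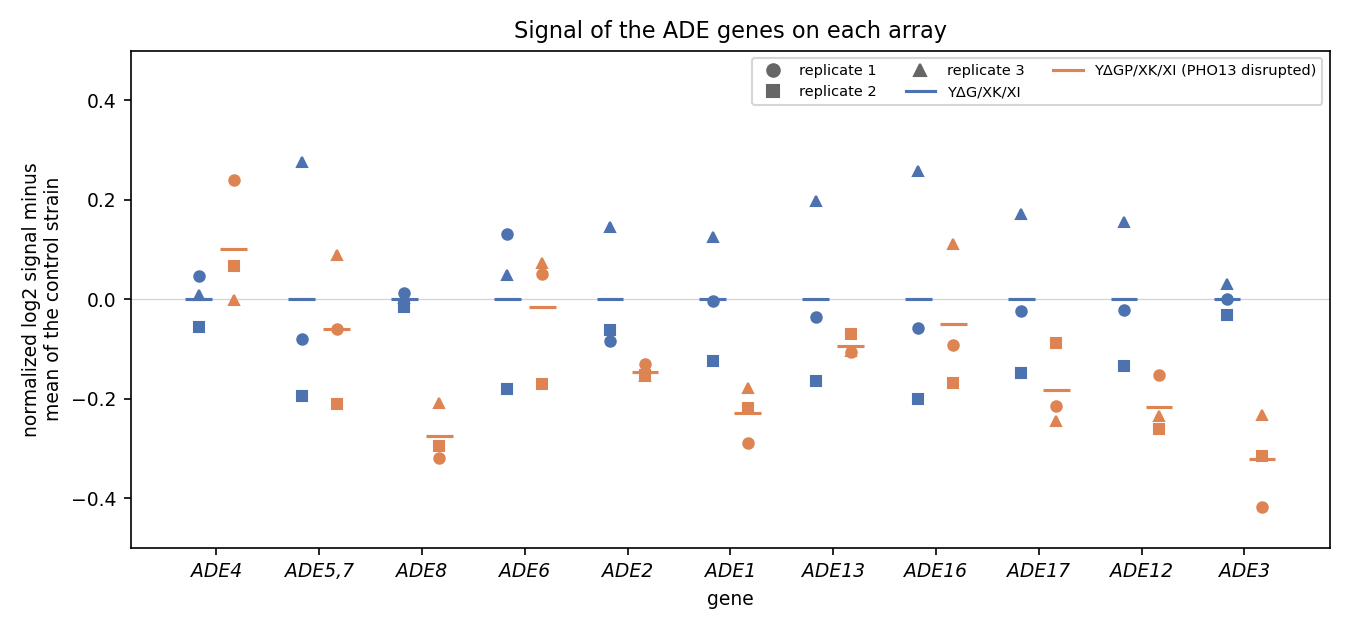
Normalized log2 signal of each *ADE* gene on each array (vertical axis, log2 units, relative to the YΔG/XK/XI mean), with genes on the horizontal axis in pathway order, *ADE12* and *ADE3* last. Blue points are the 3 arrays of YΔG/XK/XI, orange points the 3 arrays of YΔGP/XK/XI, and short lines the means. The colours are apart by more than their own spread in *ADE8* and *ADE3*, whose means differ by -0.27 and -0.32, and they overlap in *ADE4*, *ADE6*, *ADE13*, *ADE16*, *ADE17* and *ADE5,7*.

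*ADE3* (YGR204W) encodes the cytosolic enzyme that interconverts the one-carbon forms of tetrahydrofolate and supplies the formyl donor of the purine ring. Its signal was 3.21, 3.17 and 3.24 in replicates 1 to 3 of the control and 2.79, 2.89 and 2.97 in those of the disruptant. All 3 arrays of the disruptant lay below all 3 of the control. The log2 fold change was -0.32 ± 0.08 (SE, 95% interval -0.49 to -0.15, adjusted p = 0.0140, limma), or 0.800-fold. The difference was -0.35 within slide 1 and -0.26 within slide 2. Without replicate 1 of the control or replicate 1 of the disruptant the call was lost, with adjusted p = 0.0532 and 0.0544 at log2 fold changes of -0.32 and -0.27.

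*ADE8* (YDR408C) encodes glycinamide ribotide transformylase, the earlier of the enzymes that use formyl tetrahydrofolate. Its signal was 1.27, 1.24 and 1.26 in the control and 0.94, 0.97 and 1.05 in the disruptant. The groups did not overlap, and the SD was 0.01 in the control and 0.06 in the disruptant (n = 3 each). The log2 fold change was -0.27 ± 0.07 (SE, 95% interval -0.43 to -0.12, adjusted p = 0.0181), or 0.827-fold. Within slide 1 the difference was -0.31 and within slide 2 it was -0.21. Its call too was lost without replicate 1 of the control (adjusted p = 0.0704) or replicate 1 of the disruptant (adjusted p = 0.0684).

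At the entry to the pathway stands *ADE4* (YMR300C), which encodes PRPP amidotransferase, the committed step and a point of feedback inhibition by purine nucleotides. Its signal was -0.80, -0.91 and -0.84 in the control and -0.61, -0.78 and -0.85 in the disruptant. *ADE4* had the only mean above that of the control among the 10 genes, but the arrays overlapped and the log2 fold change of 0.10 did not pass the test (95% interval -0.09 to 0.29, adjusted p = 0.384). *ADE6* (YGR061C), which encodes the amidotransferase that acts after Ade8, showed -0.48, -0.79 and -0.56 in the control and -0.56, -0.78 and -0.54 in the disruptant. The strains overlapped over nearly their whole range, with a log2 fold change of -0.02 (95% interval -0.26 to 0.23, adjusted p = 0.922). The bifunctional gene *ADE5,7* (YGL234W), whose product acts before Ade8 and again after Ade6, is not among the 10 and had a log2 fold change of -0.06 (95% interval -0.36 to 0.24, adjusted p = 0.757).

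*ADE2* (YOR128C) encodes aminoimidazole ribotide carboxylase, the enzyme for which the host is mutant. The transcript was well above background on every array, which does not show whether its product works. Its signal was 0.51, 0.53 and 0.74 in the control and 0.46, 0.44 and 0.44 in the disruptant. The arrays of the disruptant were the lower ones without overlap, by 0.05 at the closest pair, and the log2 fold change of -0.15 was not called (95% interval -0.33 to 0.04, adjusted p = 0.210).

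*ADE1* (YAR015W) encodes the next enzyme, which attaches aspartate to the Ade2 product. Its signal was 0.17, 0.05 and 0.30 in the control and -0.11, -0.04 and -0.001 in the disruptant. The groups did not overlap, and the log2 fold change of -0.23 lay just outside the threshold (SE 0.08, 95% interval -0.42 to -0.03, adjusted p = 0.0751). In the fit that took the slide as a block, *ADE1* was called lower (adjusted p = 0.0380), beside 16.4% of all genes called lower. The difference was -0.19 within slide 1 and -0.30 within slide 2. *ADE1* was also called with scaling to the median of each array (adjusted p = 0.0404, log2 fold change -0.29), where 18.2% of all genes were called lower. The same held when the variance was allowed to follow the signal (adjusted p = 0.0472, 14.1% of all genes called lower).

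*ADE13* (YLR359W) encodes adenylosuccinate lyase, which removes fumarate both on the way to IMP and on the way from IMP to AMP. Its signal was -0.40, -0.53 and -0.17 in the control and -0.48, -0.44 and -0.47 in the disruptant. The control arrays enclosed those of the disruptant, and the log2 fold change was -0.09 (95% interval -0.32 to 0.13, adjusted p = 0.502). *ADE12* (YNL220W) encodes adenylosuccinate synthase, the enzyme before Ade13 in the AMP branch. It showed -1.66, -1.77 and -1.48 in the control and -1.79, -1.90 and -1.87 in the disruptant. The groups were apart by a gap of 0.02 only, and the log2 fold change of -0.22 was not called (95% interval -0.42 to -0.01, adjusted p = 0.103). With quantile normalization it was -0.30 and called (adjusted p = 0.0370), beside 15.8% of all genes called lower there.

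*ADE16* (YLR028C) and *ADE17* (YMR120C) encode isozymes that carry out the last steps to IMP and use formyl tetrahydrofolate. The signal of *ADE16* was 0.60, 0.46 and 0.92 in the control and 0.57, 0.49 and 0.77 in the disruptant. It overlapped between the strains and had the widest spread of the 10 genes in the control, an SD of 0.24 (n = 3), with a log2 fold change of -0.05 (95% interval -0.34 to 0.24, adjusted p = 0.798). The signal of *ADE17* was -0.33, -0.46 and -0.13 in the control and -0.52, -0.40 and -0.55 in the disruptant. It overlapped too, with a log2 fold change of -0.18 (95% interval -0.40 to 0.04, adjusted p = 0.187). The difference of the pair, *ADE17* minus *ADE16* on each array, was -0.97 ± 0.08 in the control and -1.10 ± 0.22 in the disruptant (SD, n = 3 each). The change of -0.13 was within the spread of the arrays (exact two-sided permutation test, p = 0.5, where 0.1 is the smallest p possible), so unequal change of the isozymes was not detectable with these arrays. Cross-hybridization between them was not tested.

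**Figure D2:**
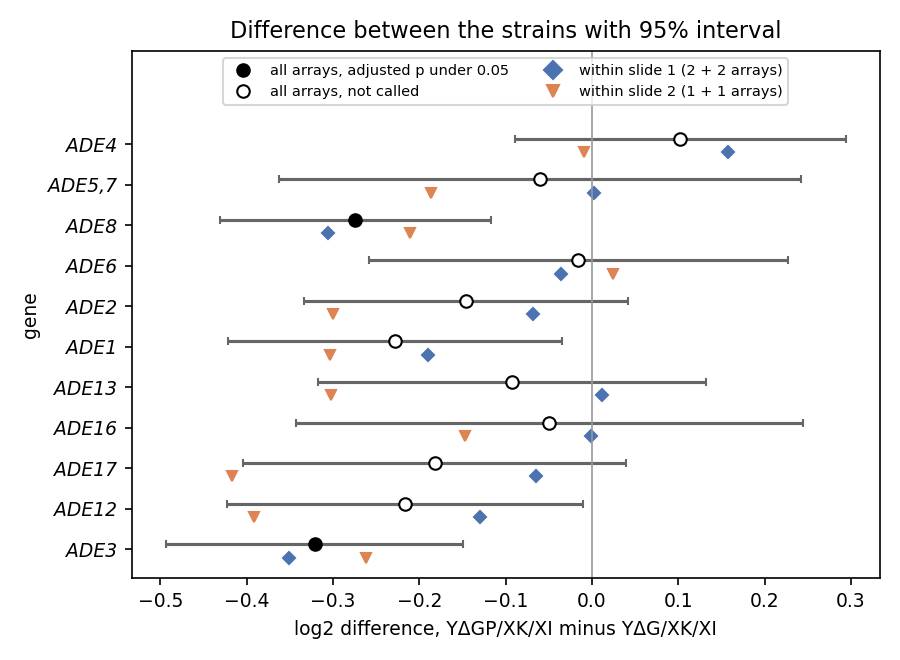
Difference between the strains for each *ADE* gene (horizontal axis, log2 units, YΔGP/XK/XI minus YΔG/XK/XI; genes on the vertical axis). Circles with bars are the limma estimate from all 6 arrays with its 95% interval, filled where the adjusted p was under 0.05, diamonds are the difference within slide 1 and triangles that within slide 2. *ADE1*, *ADE2*, *ADE3*, *ADE8*, *ADE12*, *ADE16* and *ADE17* lie below 0 on both slides, *ADE16* by under 0.01 on slide 1. *ADE2*, *ADE13*, *ADE17* and *ADE12* differ more on slide 2 (-0.30, -0.30, -0.42 and -0.39) than on slide 1 (-0.07, 0.01, -0.07 and -0.13). So do *ADE1* (-0.30 against -0.19), *ADE16* (-0.15 against -0.001) and *ADE5,7* (-0.19 against 0.003). *ADE3*, *ADE4*, *ADE6* and *ADE8* differ less on slide 2, which holds 1 array per strain.

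The 10 genes also varied among replicates of the same strain. The replicates of one strain lay wholly apart from those of the other for *ADE1*, *ADE2*, *ADE3*, *ADE8* and *ADE12*, which is 5 of 10 beside 46.6% of all genes. Replicate 3 of the control had the highest signal of its strain in 7 of the 10 genes, all but *ADE4*, *ADE6* and *ADE8*, beside 39.5% of all genes. This array was on slide 2 and had a 75th percentile of 4631, against 6750 and 7632 for the other arrays of the strain. Each slide held equal numbers of arrays of both strains, so the fit blocked on slide gave the same log2 fold changes. The part of brightness, and of unlike differences between the strains on each slide, was not tested. Without replicate 3 of the control 6 of the 10 log2 fold changes were below 0 and their median was -0.08. *ADE3* and *ADE8* remained called without this array (log2 fold changes -0.31 and -0.27, adjusted p = 0.0358 and 0.0375). Single spots of a probe had an SD of 0.02 to 0.10 within an array for the 10 genes. The means of the 7 spots had SDs of 0.01 to 0.24 between the arrays of a strain. Single spots and means are unlike measures, so the ranges cannot be compared directly.

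**Figure D3:**
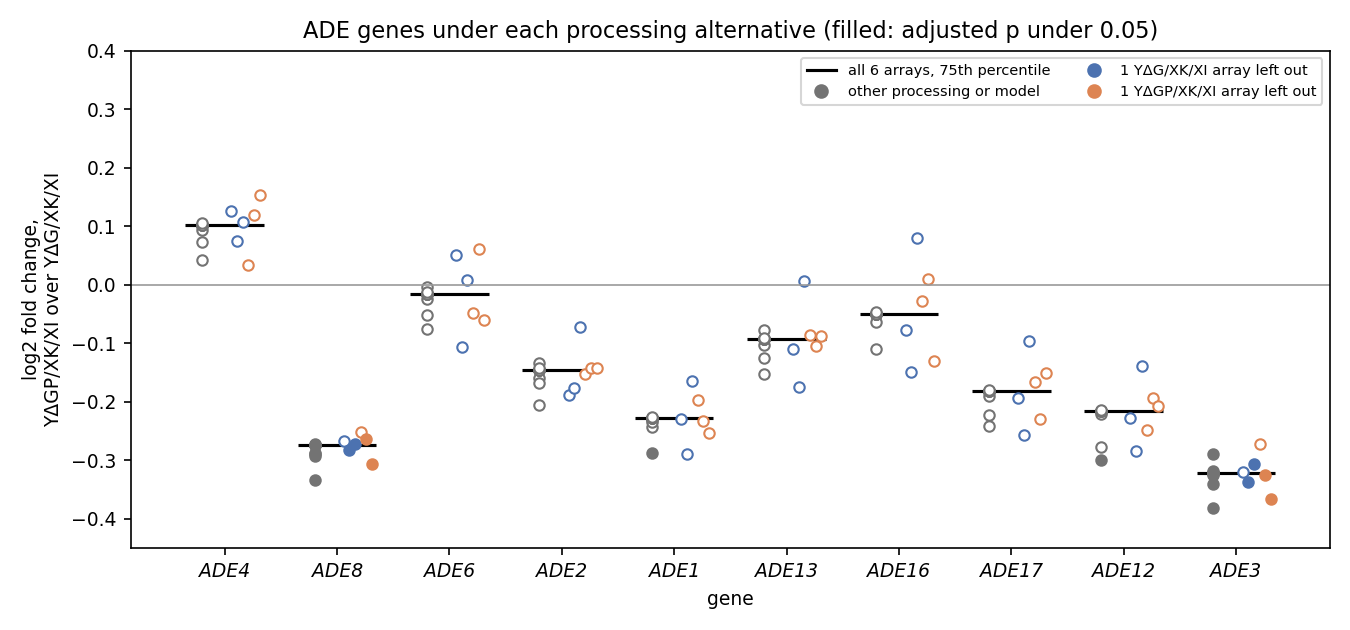
Log2 fold change of each of the 10 *ADE* genes (vertical axis, log2 units) with all 6 arrays (black line), under other processing or models (grey) and with 1 array left out (blue for YΔG/XK/XI, orange for YΔGP/XK/XI), filled where the adjusted p was under 0.05. *ADE8* stays between -0.33 and -0.25 and *ADE3* between -0.38 and -0.27, and *ADE6*, *ADE13* and *ADE16* lie on both sides of 0.

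Over the 6 arrays, the mean profile of the 10 genes (each centred on its own mean) was 0.07, -0.04 and 0.19 in the control and -0.07, -0.10 and -0.05 in the disruptant. Pearson's r with this profile, of which each gene is itself a part, ranged from 0.96 for *ADE12* and *ADE1* to 0.48 for *ADE6* and -0.31 for *ADE4*. The 5 genes most like it were picked by r from 5821 genes well above background on all arrays and outside all lists used here. The related purine genes were therefore not candidates. The 5 were *PDR10*, which encodes a membrane transporter, *ENB1*, which encodes an iron-siderophore transporter, *MRX10*, *YNL194C* and *FET4*, which encodes a low-affinity iron transporter, with r from 0.986 to 0.998. These correlations rest on the same 6 arrays of 2 strains, on which all of these genes were measured. None of the 5 genes was called (limma, adjusted p = 0.0573 to 0.186).

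Of the 3 regulators listed, *GCN4* was called higher, beside 16.5% of all genes, and *BAS1* and *PHO2* were not called. *BAS1* (YKR099W) had signals of -0.20, -0.23 and -0.41 in the control and -0.28, -0.36 and -0.13 in the disruptant. That is a log2 fold change of 0.03 with overlapping arrays (95% interval -0.19 to 0.24, adjusted p = 0.857). *PHO2* (YDL106C) had a log2 fold change of 0.08 (95% interval -0.22 to 0.37, adjusted p = 0.690). *GCN4* (YEL009C), which encodes the activator of amino acid synthesis genes and also acts on several *ADE* genes, rose from 1.97, 2.06 and 2.16 in the control to 2.40, 2.34 and 2.48 in the disruptant, a log2 fold change of 0.35 ± 0.08 (SE, adjusted p = 0.0125). Its abundance is set mainly in translation, which the array does not measure. The *GCN4* call was lost without replicate 1 of the control (adjusted p = 0.0582).

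In the list of 15 genes of one-carbon and folate metabolism, which make and use the same donors as Ade3, 6 fell, 1 rose and 8 were not called, beside 13.1% lower and 16.5% higher among all genes. Their median log2 fold change was -0.17. *SHM2* (YLR058C), the cytosolic serine hydroxymethyltransferase that feeds Ade3, was 1.71, 1.60 and 1.63 in the control and 1.35, 1.28 and 1.33 in the disruptant. All arrays of the disruptant were lower, with a log2 fold change of -0.33 (adjusted p = 0.00956). Its mitochondrial counterpart *SHM1* (YBR263W) fell by 0.38 on the log2 scale (adjusted p = 0.0124). The methylenetetrahydrofolate reductase gene *MET12* fell by 0.35 (adjusted p = 0.0112). The calls of *SHM1*, *SHM2* and *MET12* held under the 16 alternatives tried for them. The other genes that fell, *GCV1* of the glycine decarboxylase complex (-0.34), *MET13* (-0.27) and the dihydrofolate synthetase gene *FOL3* (-0.24), lost their calls in 4 to 7 of the 16 alternatives. *DFR1*, dihydrofolate reductase, rose by 0.26 and lost its call in 8 of them. *MIS1*, the mitochondrial counterpart of *ADE3*, had a log2 fold change of 0.30 that was not called (adjusted p = 0.0762), and was called higher in the fit blocked on slide (adjusted p = 0.0351), beside 20.4% of all genes called higher in it.

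Salvage and interconversion genes, which recover purine bases and interconvert nucleotides, had a median log2 fold change of 0.18. Of these 13 genes 4 rose, 2 fell and 7 were not called, beside 16.5% higher and 13.1% lower among all genes. The fit blocked on slide called 5 higher, beside 20.4% of all genes called higher in it. It added *APT2*, a close relative of *APT1* (adjusted p = 0.0190, against 0.0654 without the block). *ADK1* (YDR226W), adenylate kinase, was 0.95, 1.23 and 0.90 in the control and 1.76, 1.87 and 1.55 in the disruptant, a log2 fold change of 0.70 ± 0.12 (SE, adjusted p = 0.00304). *APT1* (YML022W), adenine phosphoribosyltransferase, which makes AMP from adenine and PRPP, was -1.79, -1.78 and -1.90 in the control and -1.20, -1.38 and -1.42 in the disruptant. Every array of the disruptant was higher than those of the control in both genes, and *APT1* had a log2 fold change of 0.49 ± 0.08 (SE, adjusted p = 0.00354). The adenine deaminase gene *AAH1* (0.32, adjusted p = 0.0192) and the nucleoside diphosphate kinase gene *YNK1* (0.34, adjusted p = 0.0182) rose less and lost their calls in 3 and 4 of 16 alternatives. *GUD1*, guanine deaminase, and *PNP1*, purine nucleoside phosphorylase, fell by 0.36 and 0.35 (adjusted p = 0.0127 and 0.0117). The call of *GUD1* was lost without replicate 1 of the control (adjusted p = 0.0588), and that of *PNP1* held under the 16 alternatives.

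**Figure D4:**
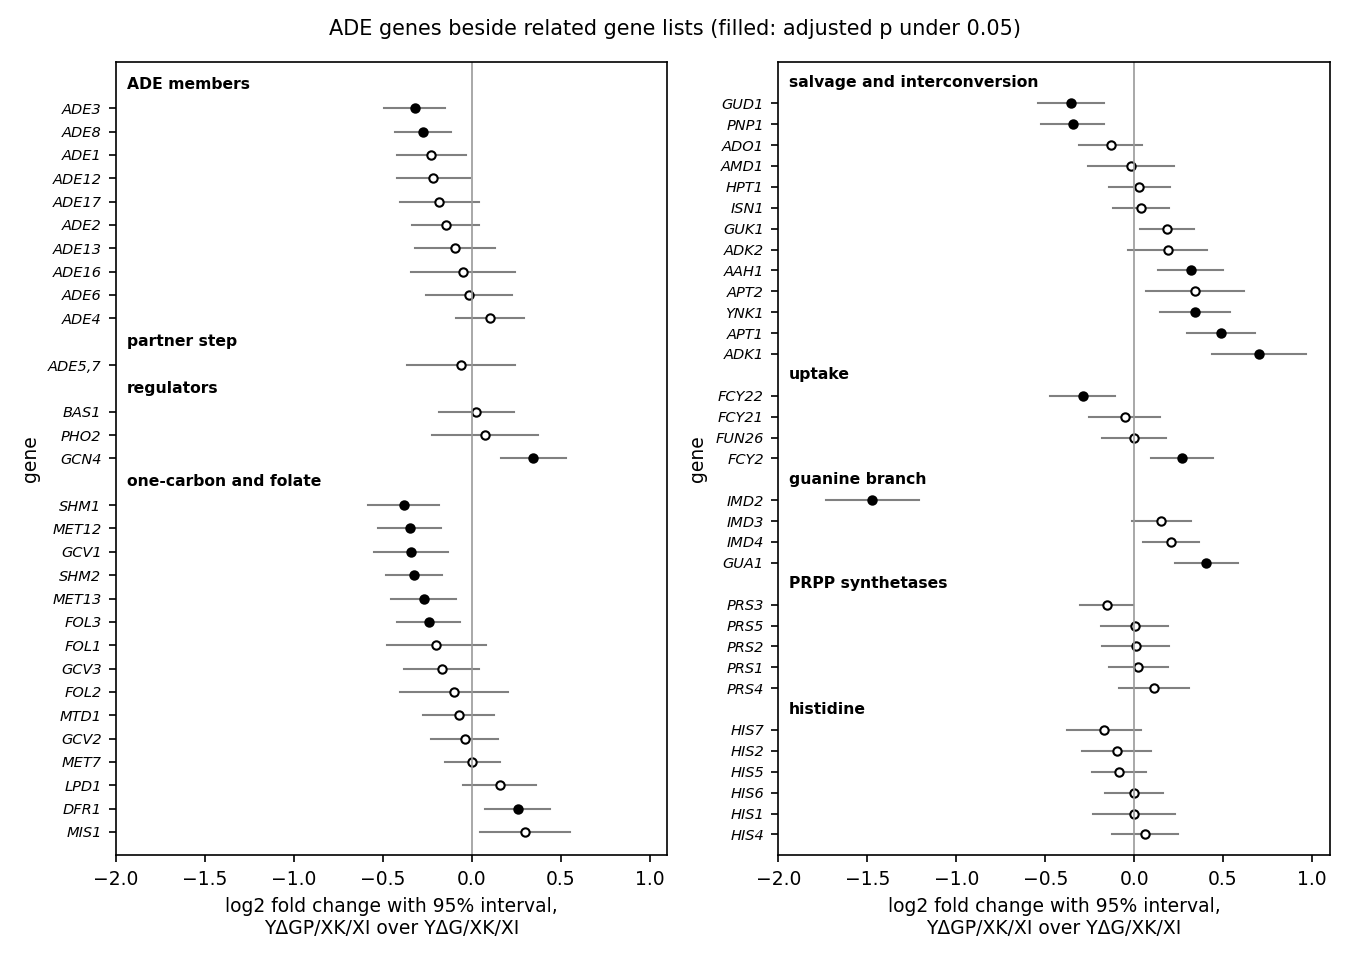
Log2 fold change (horizontal axis, YΔGP/XK/XI over YΔG/XK/XI) with its 95% interval for the 10 *ADE* genes and the genes of the related lists (vertical axis, ordered within each list), filled where the adjusted p was under 0.05. *ADE3* and *ADE8* are the filled points among the *ADE* genes, beside 13.1% of all genes called lower and 16.5% higher. Of the 15 one-carbon and folate genes 6 are filled below 0 and 1 above, and of the 13 salvage and interconversion genes 4 are filled above 0 and 2 below. *HIS3*, whose probe was well above background on 0 arrays, is not shown.

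Of the 4 uptake genes, *FCY2*, the purine-cytosine permease, rose by 0.27 (adjusted p = 0.0313) and its relative *FCY22* fell by 0.29 (adjusted p = 0.0258). Among all genes 16.5% were called higher and 13.1% lower. *FCY2* lost its call in 5 and *FCY22* in 8 of 16 alternatives. *FCY22* was also the dimmest of the 4, with 75.1 to 180 intensity units, and its log2 fold change ranged from -0.35 to -0.09 over the alternatives. In the branch from IMP to GMP, the IMP dehydrogenase gene *IMD2* fell by 1.47 on the log2 scale (SE 0.11, adjusted p = 7.13e-05). Its probe was dim, with 96.9 to 498 intensity units. Over the 16 alternatives its call held and its log2 fold change ranged from -1.56 to -1.01, weakest with normexp background correction. The GMP synthase gene *GUA1* rose by 0.41 (adjusted p = 0.00605), while *IMD3* (0.15) and *IMD4* (0.21, adjusted p = 0.0502) were not called. With the slide as a block *IMD4* was called higher (adjusted p = 0.0314), beside 20.4% of all genes called higher in that fit. The *IMD* genes are close copies of each other, and cross-hybridization was not tested. The 5 PRPP synthetase genes *PRS1* to *PRS5* had log2 fold changes of -0.16 to 0.11, and 0 were called (limma, 1 of them, *PRS3*, at an unadjusted p under 0.05). Of the 7 histidine genes, whose pathway releases the purine intermediate AICAR, 0 were called (0 at an unadjusted p under 0.05), with values from -0.17 to 0.06 outside *HIS3*. Over all genes, 29.6% were called in either direction and 42.1% had an unadjusted p under 0.05.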

How the data were processed

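Total RNA of 6 fermentation samples was labelled with Cy3 and hybridized to Agilent yeast arrays. The authors deposited 1 Agilent Feature Extraction 10.1.1.1 file per array, per the file headers, with intensity per spot after background subtraction and not scaled between arrays. Their series table of log2 values was deposited too and matched the intensities after subtraction of the 75th percentile and centring of each probe on its median (r of 0.9999, largest median difference 0.006). The scale, centring and direction of that table are not stated in the file.

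Control spots were left out, spots with an outlier flag (304 to 466 per array) were removed, and the log2 intensities of the 7 spots of a probe were averaged after subtraction of the 75th percentile of the array. A probe was well above background with at least 4 spots marked so in the file. Symbols came from the R64 gene table, which held 5756 of the 6256 systematic names, and no coordinates were used because the build of the probe design is not given in the sources used here. The comparison used limma 3.58.1 (R 4.3.3, lmFit and eBayes without covariates) over all 6256 genes with Benjamini-Hochberg adjustment, called at 0.05, and intervals are 95% from the moderated fit. The fit was tested on simulated data. With 3 arrays per strain, their number sets the precision. Slides were read from the array identifiers (slide 1, replicates 1 and 2 of both strains, slide 2, replicate 3).

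The labels do not say whether samples with the same replicate number share a batch, so the samples were not treated as pairs. Deviations from the strain means correlated at 0.07, 0.30 and 0.41 between equal numbers, against -0.48 to 0.13 between unequal numbers. Whether a batch was shared was not tested, and the replicate block is given among the alternatives. The genes and lists were chosen with earlier results of these data known. Genes named are the 10 *ADE* genes, *ADE5,7*, the regulators, called members of the lists, strain and mating type checks, and the 5 genes outside the lists nearest to the mean profile. The list members *MIS1*, *APT2*, *IMD3*, *IMD4*, *HIS3* and *PRS1* to *PRS5* are named outside this rule, after their values were seen. The gene table used for symbols has no *IMD1* entry, so the genes of the GMP branch are given without it. A planned motif search in promoters was not run and sequences are not shown. Alternatives were median scaling, quantile normalization, normexp (offset 50, on median signals), a filter on dim probes, the median of the spots, no removal of outlier spots, an intensity trend, the replicate or the slide as a block, the deposited table, and each array left out.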

Additional observations from a re-analysis of the deposited data

How the results depend on the processing

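The count of *ADE* genes called lower was 2 or 3 under every alternative with all 6 arrays and 0 to 2 with 1 array left out, and the count called higher was 0 in all of them. It was 0 without replicate 1 of YΔG/XK/XI or replicate 1 of YΔGP/XK/XI, which removes samples from the fit. *ADE1* joined *ADE3* and *ADE8* with median scaling, the intensity trend and each block, and *ADE12* with quantile normalization. With an array left out, 691 to 963 genes were called higher and 487 to 698 lower (1033 and 819 with all arrays). Of the related genes 8 to 15 were called, against 18, with 8 without replicate 1 of YΔG/XK/XI and 11 without replicate 1 or replicate 3 of YΔGP/XK/XI. The related genes measured were *ADE5,7*, 3 regulators, 15 one-carbon and folate genes and 13 salvage and interconversion genes. The rest were 4 uptake, 4 GMP branch, 5 PRPP synthetase and 7 histidine genes. With all arrays the share called ranged from 0% of the PRPP synthetase and histidine lists to 50% of the uptake and GMP branch lists. The share over all genes was 29.6%. With the replicate block 1295 genes were called higher and 1067 lower, with 3 *ADE* genes lower and 21 related genes called. In their deviations from the strain means, all samples but replicate 1 of YΔGP/XK/XI correlated best with their own number. That sample correlated at 0.13 with replicate 2 of YΔG/XK/XI, against 0.07 with replicate 1. Median scaling moved the share of calls that were higher from 55.8% to 42.4% and the median of all genes from 0.01 to -0.05. The change of *ADE17* minus *ADE16* was -0.24 to -0.02 with an array left out (exact permutation). Log2 differences below about 0.2 are within the interval of most genes here.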
